A study of Mus musculus with 3 samples.

Results

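The 33 genes described here were 24 immediate early genes and 9 heat shock genes, out of 32285 genes in the count tables of the series. They were picked by symbol as a readout of handling and stress, a rule that uses no measured value, although the list was drawn up with earlier results of these data known. Every one of the 33 was found. The immediate early genes were Fos, Fosb, Fosl1, Fosl2, Jun, Junb, Jund and Atf3, then Egr1, Egr2, Egr3, Nr4a1, Nr4a2 and Nr4a3, then Ier2, Ier3, Ier5, Dusp1, Dusp2, Dusp5, Zfp36, Klf2, Klf4 and Klf6. The heat shock genes were 5 that are mainly inducible (Hspa1a, Hspa1b, Dnajb1, Hsph1 and Hspb1) and 4 that are constitutive or mitochondrial (Hsp90aa1, Hspa8, Hspe1 and Hspd1).

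Single-cell RNA libraries had been made from mouse tumour tissue in 3 groups with 1 library each. The library labelled CKO+RI came from a host in which a floxed Sfrp2 gene was deleted by a Cre under the Col1a2 promoter (Sfrp2ΔCol1a2), a promoter active in fibroblasts, after radiation and an immune checkpoint inhibitor. Flox+RI came from an Sfrp2 fl/fl host after the same pair of treatments, and Flox+ICI from an Sfrp2 fl/fl host after the checkpoint inhibitor alone. In all 3 groups the tumour was LLC1-sgLkb1, a line derived from Lewis lung carcinoma with an LKB1 knockdown. It was given through the tail vein to form lung lesions, which were not irradiated, and later under the skin to form the tumour that was irradiated in the RI groups. The labels name the tissue as tumour without telling the lesion sampled, or how many animals a library holds. The tissue had been kept on ice in storage solution and then digested to single cells, and the labels used here do not give the time either step took. Sfrp2 itself, a secreted Wnt-binding protein gene, had 46 UMIs in the kept cells labelled CKO+RI, against 3 for Flox+RI and 6 for Flox+ICI. In gated fibroblasts it had 0 UMIs in 78 cells, 1 in 17 cells and 3 in 183 cells, in the same order, so these counts could not check the deletion in fibroblasts.

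Immediate early genes are transcribed within minutes of a stimulus from factors already present in the cell, and many encode transcription factors of the AP-1, EGR and NR4A families or proteins that shut the response off again. Heat shock genes are switched on by the factor HSF1 when unfolded proteins accumulate, and encode chaperones and their helpers. Warm enzymatic digestion of tissue is known to raise both sets, which is why they are read as marks of handling as well as of stress in the living tissue. In a mouse tumour they are found in the malignant cells, in myeloid and lymphoid cells and in vessels alike.

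Hspa1a and Hspa1b, the inducible HSP70 pair on which much of what follows turns, are neighbouring copies on the minus strand of chromosome 17, Hspa1a at 34969190 to 34972156 and Hspa1b at 34956436 to 34959238 (GRCm38, GENCODE vM21). The 250 bases before each start, from RefSeq on GRCm38.p6, are shown because both copies carry the same match to a core of the heat shock element there. They lie at chr17:34972157-34972406 and chr17:34959239-34959488, minus strand. Hspb1, the small heat shock protein HSP27, is shown for comparison at chr5:135887669-135887918, plus strand. Capitals mark each match to GAANNTTC, a core of the element that HSF1 binds, which reads the same on both strands.
Hspa1a: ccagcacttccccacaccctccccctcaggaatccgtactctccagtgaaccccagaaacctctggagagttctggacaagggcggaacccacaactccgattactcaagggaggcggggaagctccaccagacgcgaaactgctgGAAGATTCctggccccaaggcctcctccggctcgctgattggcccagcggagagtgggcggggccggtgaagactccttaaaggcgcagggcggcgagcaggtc
Hspa1b: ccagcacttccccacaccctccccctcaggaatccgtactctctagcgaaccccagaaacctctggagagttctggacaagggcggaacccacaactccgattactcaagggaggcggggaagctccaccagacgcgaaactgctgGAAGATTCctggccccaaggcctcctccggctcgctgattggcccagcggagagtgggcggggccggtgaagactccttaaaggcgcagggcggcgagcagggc
Hspb1: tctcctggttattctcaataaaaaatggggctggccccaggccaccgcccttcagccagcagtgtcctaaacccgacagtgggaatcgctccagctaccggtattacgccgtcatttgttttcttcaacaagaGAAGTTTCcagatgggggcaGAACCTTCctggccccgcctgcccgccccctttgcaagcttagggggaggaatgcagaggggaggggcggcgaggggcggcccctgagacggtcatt

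The Hspa1a and Hspa1b windows were identical at 247 of 250 bases (98.8%), and each held 1 match, at 104 to 97 bases before the start. The Hspb1 window held 2 matches, at 117 to 110 and at 97 to 90 bases before the start. A window was at hand for 27 of the 33 members, and for Fosl1, Hspa8, Egr3, Egr1, Ier2 and Hsp90aa1 there was none. GAANNTTC was found in 7 of these 27 windows (Fosl2, Hspa1a, Hspa1b, Hspb1, Hspd1, Hspe1 and Jun) and in 6.69% of 32851 windows over all genes. The opposite order, TTCNNGAA, was found in 4 of 27 (Egr2, Hspd1, Hspe1 and Hsph1) against 7.17% of all windows. The 3-unit heat shock element, in which both cores overlap in their middle unit, was found in Hspd1 and Hspe1 and in 0.466% of all windows. These 2 genes are neighbours on chromosome 1 whose starts face away from each other. Their windows may therefore hold the same site, which the counts of all 3 motifs would include for both genes. Whether they do was not checked. The serum response element core (CArG box), which drives many immediate early genes, was found for Dusp5, Egr2 and Zfp36 and in 1.47% of all windows. The cyclic AMP response element TGACGTCA was found for Dusp1 and in 1.55% of all windows, and the AP-1 site TGANTCA in none of the 27 and in 6.75% of all windows. Each motif was searched on both strands, and a match describes the letters of the window and not a bound site.

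The libraries held 9300, 13340 and 10842 barcodes with 161250286, 101840883 and 75543561 UMIs for CKO+RI, Flox+RI and Flox+ICI. After filters and doublet removal 8383, 11706 and 9777 cells were kept, with median depths of 13406, 2576.5 and 3018 UMIs per cell and 2.15%, 2.08% and 2.19% mitochondrial UMIs. Between 26 and 30 kept barcodes were shared by each pair of libraries. Cells were sorted into classes by marker genes, and the class names below stand for cells that carry these markers. The class called T cells without a CD4 or CD8 UMI is named loosely, as it held the gated T cells left by the CD8, CD4 and regulatory rules. Cells with UMIs of both CD8 and CD4 genes, or of CD8 genes and regulatory markers, also stayed in it. How many they were was not counted. The gates left 1206 (14.4%), 2938 (25.1%) and 1027 (10.5%) cells with no class. In 8 classes all 3 libraries had at least 50 cells, and these carry the comparisons: tumour cells (3094, 4143 and 3004 cells, in the same order), macrophages (588, 1490 and 892), classical monocytes (306, 416 and 872), neutrophils (623, 1695 and 1642), CD8 T cells (226, 135 and 239), T cells without a CD4 or CD8 UMI (170, 290 and 430), endothelial cells (296, 117 and 439) and alveolar type 2 cells (156, 120 and 391). In tumour cells, 8 of 11 fixed markers were found in at least 10% of cells and Xist, the RNA of the inactive X chromosome, was at 2.74, 3.58 and 3.09 CPM against 295 to 403 CPM in endothelial cells. All fixed markers of the other 7 classes passed the same limit. The gates used these same markers, so this limit could hardly fail. Set against all classes checked, including other T cells and tumour cells with Lum and Dcn, 5 of 11 tumour markers were highest in tumour cells. This was so for 0 of 7 in T cells without a CD4 or CD8 UMI, 5 of 6 in monocytes and 7 of 8 in macrophages. In the remaining classes of the 8 it was so for all.

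Levels are UMIs of a gene or arm per 1000000 UMIs of the class (CPM). Intervals are 95% exact intervals that cover counting error only, since cells of 1 library are not replicates and no comparison between libraries has a replicate check. A gene was counted as past the fold when the ratio of 2 libraries was at least 2 or at most 0.5, with at least 20 UMIs in both libraries together. The comparisons were CKO+RI over Flox+RI and Flox+RI over Flox+ICI. They share the Flox+RI library, so a value that stood apart in Flox+RI enters both, in opposite directions. Since the libraries spread their cells of a class over different clusters of an unsupervised clustering, each ratio was also taken within every cluster with at least 50 cells of that class in both libraries, an alternative chosen after seeing the data. Of 91 cases of a member past the fold in a class that could be compared in this way, 58 were past it in every such cluster, and 33 were not in at least 1, with the opposite direction in 3 of them. In both T cell classes every case that could be compared held within cluster 3. That cluster held nearly all gated cells of these classes (599 CD8 T cells and 875 without a CD4 or CD8 UMI). The check there could thus hardly differ from the class itself, and its cases are among the 58. Monocytes, endothelial cells and alveolar type 2 cells also had only 1 such cluster each (10, 12 and 15), so most of the 58 rest on a single cluster. Fewer cases held where several clusters could be compared. In CKO+RI over Flox+RI these were 2 of 8 in macrophages, 2 of 7 in neutrophils and 3 of 8 in tumour cells. In Flox+RI over Flox+ICI they were 0 of 1 in macrophages and 2 of 4 in tumour cells, and in neutrophils none of 7 held in both clusters compared, 2 and 9. The median gene was not always at a ratio of 1. In CKO+RI over Flox+RI the log2 median over all genes was -0.22 in neutrophils, 0.17 in monocytes, 0.14 in CD8 T cells and 0.13 in endothelial cells, and in the other 4 classes it was within 0.10 of 0. In Flox+RI over Flox+ICI it was 0.36 in neutrophils, -0.25 in tumour cells, -0.20 in monocytes, -0.18 in CD8 T cells, -0.14 in alveolar type 2 cells and -0.11 in endothelial cells, with -0.09 in the other 2.

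Summed over its 24 genes and compared among the 8 classes, the immediate early arm of the library labelled CKO+RI was highest in neutrophils (12137 CPM, 11939 to 12338), as was that of Flox+RI (15438 CPM, 15228 to 15651). In Flox+ICI, endothelial cells (12006.5 CPM, 11801 to 12214) and neutrophils (11728 CPM, 11575 to 11882) stood at the top with intervals that overlapped. The lowest level among the 8 classes was 4066 CPM (CD8 T cells) in CKO+RI, 3039 CPM (tumour cells) in Flox+RI and 3187 CPM (CD8 T cells) in Flox+ICI. The heat shock arm had another order of the 8 classes. It was highest in tumour cells in every library, at 4188, 4791 and 4425 CPM in CKO+RI, Flox+RI and Flox+ICI, and lowest in neutrophils, at 1788 CPM in CKO+RI and 1541 CPM in Flox+ICI, and in alveolar type 2 cells of Flox+RI, at 2429 CPM. Single genes carried much of each sum. Ier3, a short-lived survival protein gene, gave 24.9%, 32.1% and 27.7% of the immediate early UMIs of tumour cells, and Hspa8, the constitutive HSC70 chaperone, gave 36.6% to 70.4% of the heat shock UMIs over the 24 combinations of class and library.

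**Figure D1:**
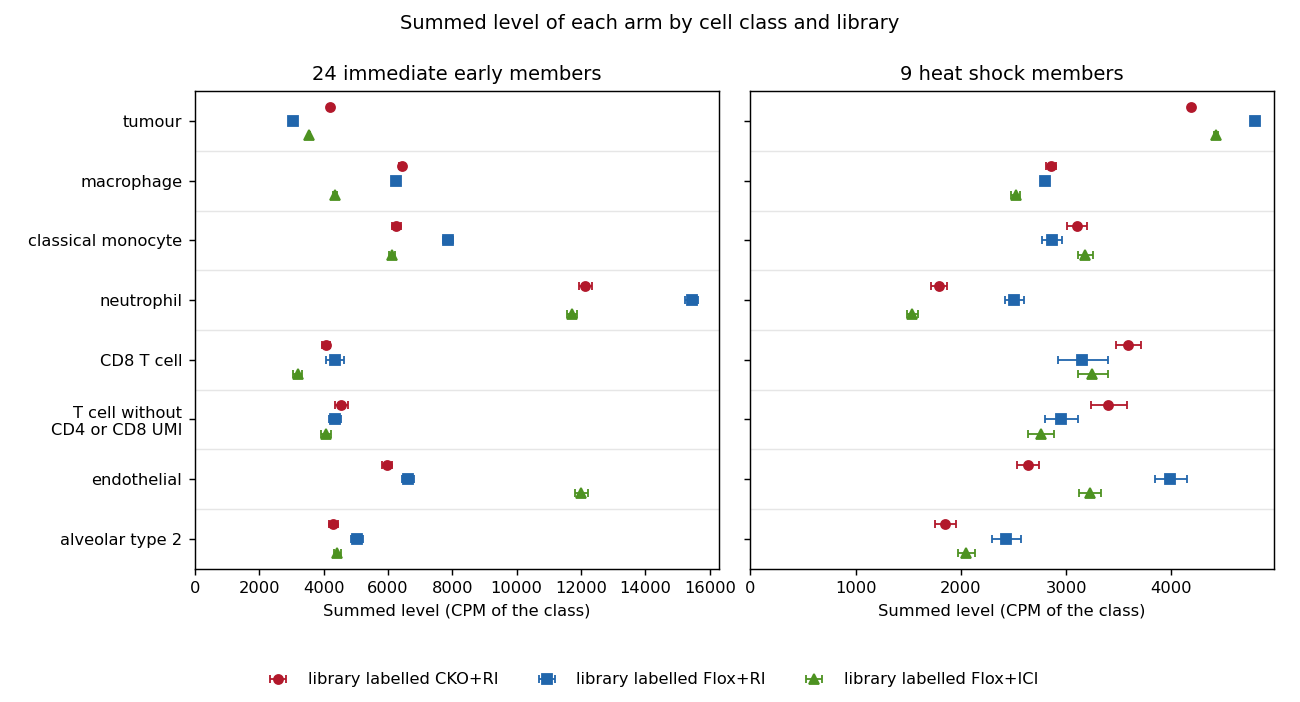
Level of the immediate early arm and of the heat shock arm, in UMIs per 1000000 UMIs of the class, for 8 marker-gated cell classes in the libraries CKO+RI, Flox+RI and Flox+ICI; error bars are exact Poisson 95% intervals and cover counting error only. Neutrophils reached 11728 to 15438 CPM in the immediate early arm, endothelial cells of Flox+ICI reached 12006.5 CPM, and the heat shock arm was highest in tumour cells, at 4188 to 4791 CPM.

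Between libraries the arms as a whole differed by less than 2-fold in every class. The immediate early arm of CKO+RI was above that of Flox+RI in 3 of 8 classes, with 4212 against 3039 CPM in tumour cells (ratio 1.39, 1.38 to 1.39), 6425 against 6250.4 CPM in macrophages (1.03) and 4551 against 4345 CPM in T cells without a CD4 or CD8 UMI (1.05, an interval that includes 1). With the median ratio over all genes set to 1 the macrophage ratio was 0.960, and with equal weight for each cell 1 of 8 classes was above. The arm was lower in neutrophils (12137 against 15438 CPM, 0.786) and monocytes (6258 against 7857 CPM, 0.796). The heat shock arm of CKO+RI was higher in 4 of 8 classes, by ratios of 1.02 to 1.15, and lowest against Flox+RI in endothelial cells, with 2638 against 3990.1 CPM (0.661, 0.626 to 0.698). With the median ratio set to 1 it was higher in 2 of 8, the ratio being 0.954 in macrophages and 0.962 in monocytes. In Flox+RI over Flox+ICI, the immediate early arm was higher in 6 of 8 classes, by 1.07 to 1.44, and lower in endothelial cells (6616 against 12006.5 CPM, 0.551, 0.533 to 0.570) and tumour cells (3039 against 3557 CPM, 0.854, or 1.02 with the median ratio set to 1). The heat shock arm was also higher in 6 of 8, most in neutrophils (2508 against 1541 CPM, 1.63). The median ratio over all genes was itself 1.29 in neutrophils in this comparison. With it set to 1, the immediate early ratio of neutrophils lay near 1. Their heat shock ratio then fell below that of endothelial cells, while those of CD8 T cells and monocytes rose above 1. Within each arm, sets of genes differed in opposite directions.

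The inducible HSP70 pair stood above Flox+RI in all 8 classes of the library labelled CKO+RI, most in the T cells. Hspa1a and Hspa1b encode the same stress-induced chaperone, which holds unfolded proteins for refolding. In CD8 T cells Hspa1a was at 321 CPM in CKO+RI, 45.2 CPM in Flox+RI and 20.6 CPM in Flox+ICI, from 312, 10 and 13 UMIs. In macrophages it was at 289.5, 85.5 and 41.0 CPM, in the same order. CKO+RI was the highest library and Flox+ICI the lowest in both classes. The ratio of CKO+RI over Flox+RI was 7.10 (3.81 to 15) in CD8 T cells and 3.38 (3.06 to 3.75) in macrophages. It was 24.9 (10.4 to 78.2) in T cells without a CD4 or CD8 UMI, where 119 UMIs (259.6 CPM) stood against 5 UMIs (10.4 CPM). Monocytes had 260.2 against 70.6 CPM (3.68, 2.91 to 4.70), endothelial cells 184 against 64.7 CPM (2.84), alveolar type 2 cells 109.6 against 46.3 CPM (2.37) and tumour cells 3.55 against 1.64 CPM (2.17). Neutrophils were the exception, with 45.0 against 33.2 CPM and an interval that includes 1 (1.36, 0.892 to 2.07), and within their cluster 2 the ratio was 0.944 (0.575 to 1.59). In macrophages the difference was not past the fold within cluster 7, which held 53.4% of those of Flox+RI, with 1.79 (1.40 to 2.28) there against 2.96 (2.58 to 3.40) in cluster 8. In tumour cells it was past the fold in clusters 0 (2 UMIs in Flox+RI) and 6 and not in clusters 1, 5 and 13.

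Hspa1b gave the same order of CKO+RI over Flox+RI. It was at 145, 39.8 and 24.7 CPM in macrophages of CKO+RI, Flox+RI and Flox+ICI, at 154, 49.2 and 30.2 CPM in monocytes and at 256, 36.1 and 17.4 CPM in CD8 T cells. In T cells without a CD4 or CD8 UMI it was at 297, 22.9 and 29.1 CPM, and in tumour cells at 20.4, 5.93 and 12.9 CPM. Ratios of CKO+RI over Flox+RI ran from 1.5 in neutrophils (0.886 to 2.57) through 3.44 in tumour cells (3.09 to 3.84) to 13 in T cells without a CD4 or CD8 UMI (7.02 to 26.6). Each of the 2 genes was thus higher in CKO+RI in 8 of 8 classes and past the fold in 7 of 8, the neutrophils being left out. Within macrophage cluster 7, however, Hspa1b was at 39.1 against 36.2 CPM (1.08, 0.691 to 1.63), while in cluster 8 it was at 177 against 50.3 CPM (3.51, 2.86 to 4.34). Within alveolar type 2 cluster 15 its ratio was 1.92 with an interval that includes 1. The share of all measured genes that were past the fold and higher was 14.3% in CD8 T cells, 5.48% in T cells without a CD4 or CD8 UMI, 10.7% in alveolar type 2 cells, 11% in monocytes, 13.6% in endothelial cells, 6.4% in macrophages, 5.99% in neutrophils and 4.75% in tumour cells. In Flox+RI over Flox+ICI the pair had no common direction. Hspa1a was past the fold and higher in macrophages (2.09, 1.77 to 2.47, and 1.88 within cluster 7) and CD8 T cells (2.19, an interval that includes 1) and past the fold and lower in endothelial cells (64.7 against 133 CPM, 0.488) and T cells without a CD4 or CD8 UMI (0.418, an interval that includes 1). Hspa1b, measured in 7 classes, was past the fold in tumour cells alone, lower at 0.460 (0.405 to 0.522, and 0.391 to 0.590 within 4 clusters), where 9.82% of all genes were past the fold and lower.

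Because CKO+RI was the deepest library, each cell was also thinned to 1000 UMIs, leaving out shallower cells, and the share of cells with a UMI of Hspa1a or Hspa1b was taken. In macrophages this share was 25.6% (22.0 to 29.4) of 559 cells in CKO+RI, 10.7% (9.09 to 12.5) of 1306 in Flox+RI and 7.23% (5.58 to 9.17) of 858 in Flox+ICI. Unthinned, it was 49.7%, 30.5% and 22.5% at median depths of 7700, 4353.5 and 5463 UMIs. In CD8 T cells the thinned share was 28.9% (23.1 to 35.3), 7.76% (3.61 to 14.2) and 4.02% (1.85 to 7.49) with 1, 19 and 15 cells left out, and unthinned it was 52.7%, 11.1% and 7.95%. T cells without a CD4 or CD8 UMI had 32.1%, 4.29% and 5.25%, and monocytes 23.1%, 8.63% and 7.13%. The tumour cells had 2.38%, 0.777% and 1.34% at median depths of 25268.5, 16105 and 14788 UMIs. How far free RNA in the droplets gave these shares was not tested. In each library the intervals of the T cell classes, macrophages and monocytes lay above that of the tumour cells (1.87 to 2.99, 0.528 to 1.10 and 0.959 to 1.82).

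**Figure D2:**
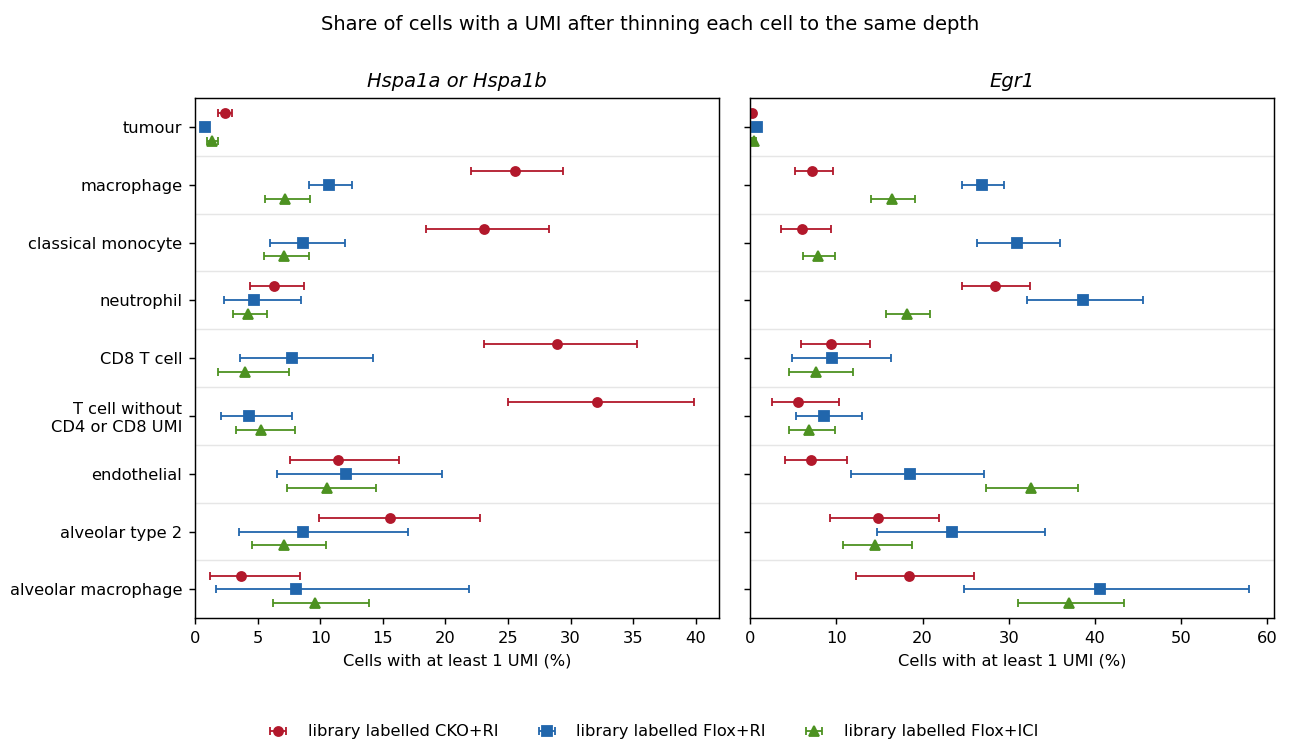
Percent of cells with a UMI after thinning to 1000 UMIs per cell, with exact binomial 95% intervals, by cell class for the libraries CKO+RI, Flox+RI and Flox+ICI. The share with a UMI of Hspa1a or Hspa1b was 25.6% in macrophages of CKO+RI against 10.7% in Flox+RI, and that with a UMI of Egr1 was 7.16% in macrophages of CKO+RI against 27.0% in Flox+RI.

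In several other classes the thinned share did not separate the libraries. Thinned shares in endothelial cells of CKO+RI, Flox+RI and Flox+ICI were 11.5%, 12.0% and 10.5%, although their Hspa1a level differed 2.84-fold between CKO+RI and Flox+RI, and 69, 9 and 126 shallower cells were left out. The tenth of endothelial cells of CKO+RI with the most HSP70 UMIs held 92.7% of them, against 67.1% for macrophages, 58.8% for CD8 T cells and 51% for T cells without a CD4 or CD8 UMI of the same library. Alveolar macrophages, resident in the air spaces and too few in Flox+RI for the comparisons, had 3.68% (1.2 to 8.37) of 136 cells in CKO+RI, 8.11% (1.70 to 21.9) of 37 cells in Flox+RI and 9.56% (6.22 to 13.9) of 251 cells in Flox+ICI, so CKO+RI was not the highest there. Neutrophils had 6.29%, 4.72% and 4.26%, with 1483 of 1695 cells of Flox+RI under 1000 UMIs and left out. NK cells, of which Flox+RI had 14, had 34.3% (23.3 to 46.6) in CKO+RI against 6.67% (2.20 to 14.9) in Flox+ICI.

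Tumour cells counted mostly Hspa1b, while most host classes counted more Hspa1a than Hspa1b. Hspa1a gave 14.8%, 21.7% and 10.8% of the summed Hspa1a and Hspa1b UMIs in tumour cells of CKO+RI, Flox+RI and Flox+ICI. In macrophages it gave 66.6%, 68.3% and 62.4%, and in endothelial cells 64.6%, 58.7% and 70.9%. In CD8 T cells it gave 55.6%, 55.6% and 54.2%. Over the 7 host classes and 3 libraries the lowest share was 31.2%, in T cells without a CD4 or CD8 UMI of Flox+RI with 5 Hspa1a and 11 Hspa1b UMIs (11 to 58.7, an interval that includes the tumour shares). Cells with tumour markers and Lum and Dcn, 979 of them in CKO+RI, had 12.5%. The copies share sequence: of 2877 stretches of 91 bases in the Hspa1a transcript, 1412 (49.1%) also occur in Hspa1b, but none of the 410 in the last 500 bases does. Which transcript end was read was not given in the sources used here, and reads from the shared stretches cannot be told apart, so the shares are those of the UMIs as counted.

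**Figure D3:**
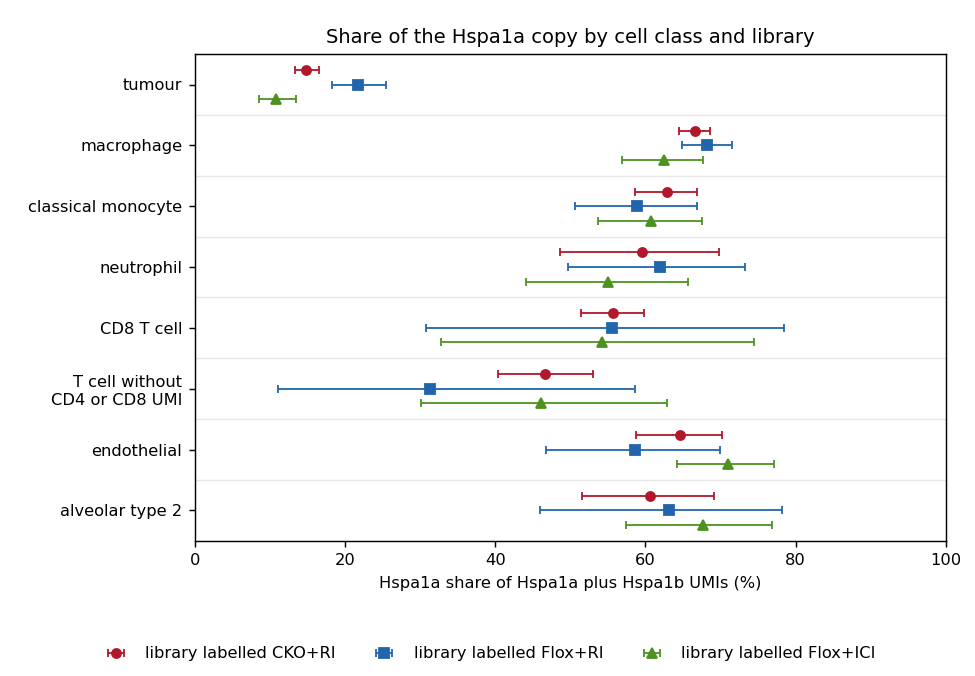
Share of Hspa1a in the summed UMIs of Hspa1a and Hspa1b, in percent with exact binomial 95% intervals, by cell class and library. Tumour cells lie at 10.8% to 21.7%, below the host classes, of which macrophages lie at 62.4% to 68.3%.

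The other inducible members differed less. Dnajb1, the HSP40 partner that hands proteins to HSP70, was at 102, 62.3 and 69.5 CPM in tumour cells of CKO+RI, Flox+RI and Flox+ICI (CKO+RI over Flox+RI 1.64, 1.58 to 1.70) and at 77.7, 52.3 and 43.0 CPM in macrophages (1.48). It was higher in CKO+RI in 6 of 8 classes and past the fold in none. Hsph1, a nucleotide exchange factor for HSP70, was at 146, 81.3 and 55.5 CPM in CD8 T cells (1.80, 1.10 to 3.12) and was higher in CKO+RI in 5 of 8 classes, again with none past the fold. Among the 8 classes Hspb1 was highest in endothelial and alveolar type 2 cells. It was at 223, 157 and 388 CPM in endothelial cells and at 161, 102 and 179.9 CPM in alveolar type 2 cells, against 23.5 CPM or less in the leukocyte classes among the 8 and 2.03 to 2.21 CPM in tumour cells. Outside the 8 classes it was higher still, at 619, 659 and 685 CPM in 78, 17 and 183 fibroblasts and at 1717 CPM in 31 mesothelial cells of CKO+RI. Flox+RI was the lowest library in endothelial and alveolar type 2 cells, and the ratio of Flox+RI over Flox+ICI was 0.405 (0.325 to 0.502) in endothelial cells. Summed, the 5 inducible genes were higher in CKO+RI than in Flox+RI in 8 of 8 classes, from 1.13 in neutrophils to 4.33 in T cells without a CD4 or CD8 UMI (820.2 against 189 CPM).

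As a sum, the constitutive and mitochondrial chaperones went the other way. Their sum was lower in CKO+RI than in Flox+RI in 8 of 8 classes, with ratios from 0.555 in endothelial cells to 0.97 in monocytes. The intervals included 1 in monocytes and both T cell classes. Single genes did not all follow, and Hspe1 and Hspd1 were both higher in T cells without a CD4 or CD8 UMI. The median log2 ratio of the set was -0.02 in CD8 T cells, 0.02 in T cells without a CD4 or CD8 UMI, 0.05 in monocytes and -0.08 in macrophages. It lay between -0.51 and -0.20 in the other classes. Hsp90aa1, the stress-responsive HSP90 that matures kinases and receptors, was at 842, 949 and 905 CPM in tumour cells of CKO+RI, Flox+RI and Flox+ICI. In neutrophils it was at 413, 745 and 319.5 CPM. Flox+RI was the highest library in both classes. CKO+RI was lower than Flox+RI in 8 of 8 classes (0.554 to 0.925) and past the fold in none, while Flox+RI over Flox+ICI was past the fold in neutrophils (2.33, 2.10 to 2.58), though not within their clusters 2 (1.74) and 9 (1.39). Hspa8 was at 1657, 2294 and 2017 CPM in tumour cells (0.722 for CKO+RI over Flox+RI) and at 1214, 2715 and 1568 CPM in endothelial cells (0.447, 0.415 to 0.481). It was lower in CKO+RI in 7 of 8 classes, and in monocytes it was at 1698, 1618 and 2239 CPM (1.05, 0.988 to 1.11, or 0.933 with the median ratio over all genes set to 1). Hspe1 and Hspd1, the mitochondrial chaperonin pair, were at 831, 652 and 634 CPM and at 595, 693 and 646 CPM in tumour cells, so the partners differed in opposite directions between CKO+RI and Flox+RI (1.28, 1.26 to 1.29, and 0.858, 0.847 to 0.868). Neither was past the fold in any of the 8 classes in either comparison.

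Of the 9 heat shock genes, those past the fold and higher in CKO+RI were thus Hspa1a and Hspa1b alone, in all classes but neutrophils. Those past the fold and lower were Hspa8 in endothelial cells and Hspb1 in neutrophils (6 against 17 UMIs, 0.397, an interval that includes 1). The share of all genes past the fold and lower was 4.29% in endothelial cells and 13.8% in neutrophils. In Flox+RI over Flox+ICI the calls were those named above for Hspa1a, Hspa1b, Hsp90aa1 and Hspb1, and Hspb1 in T cells without a CD4 or CD8 UMI (5 against 17 UMIs, 0.443, an interval that includes 1).

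**Figure D4:**
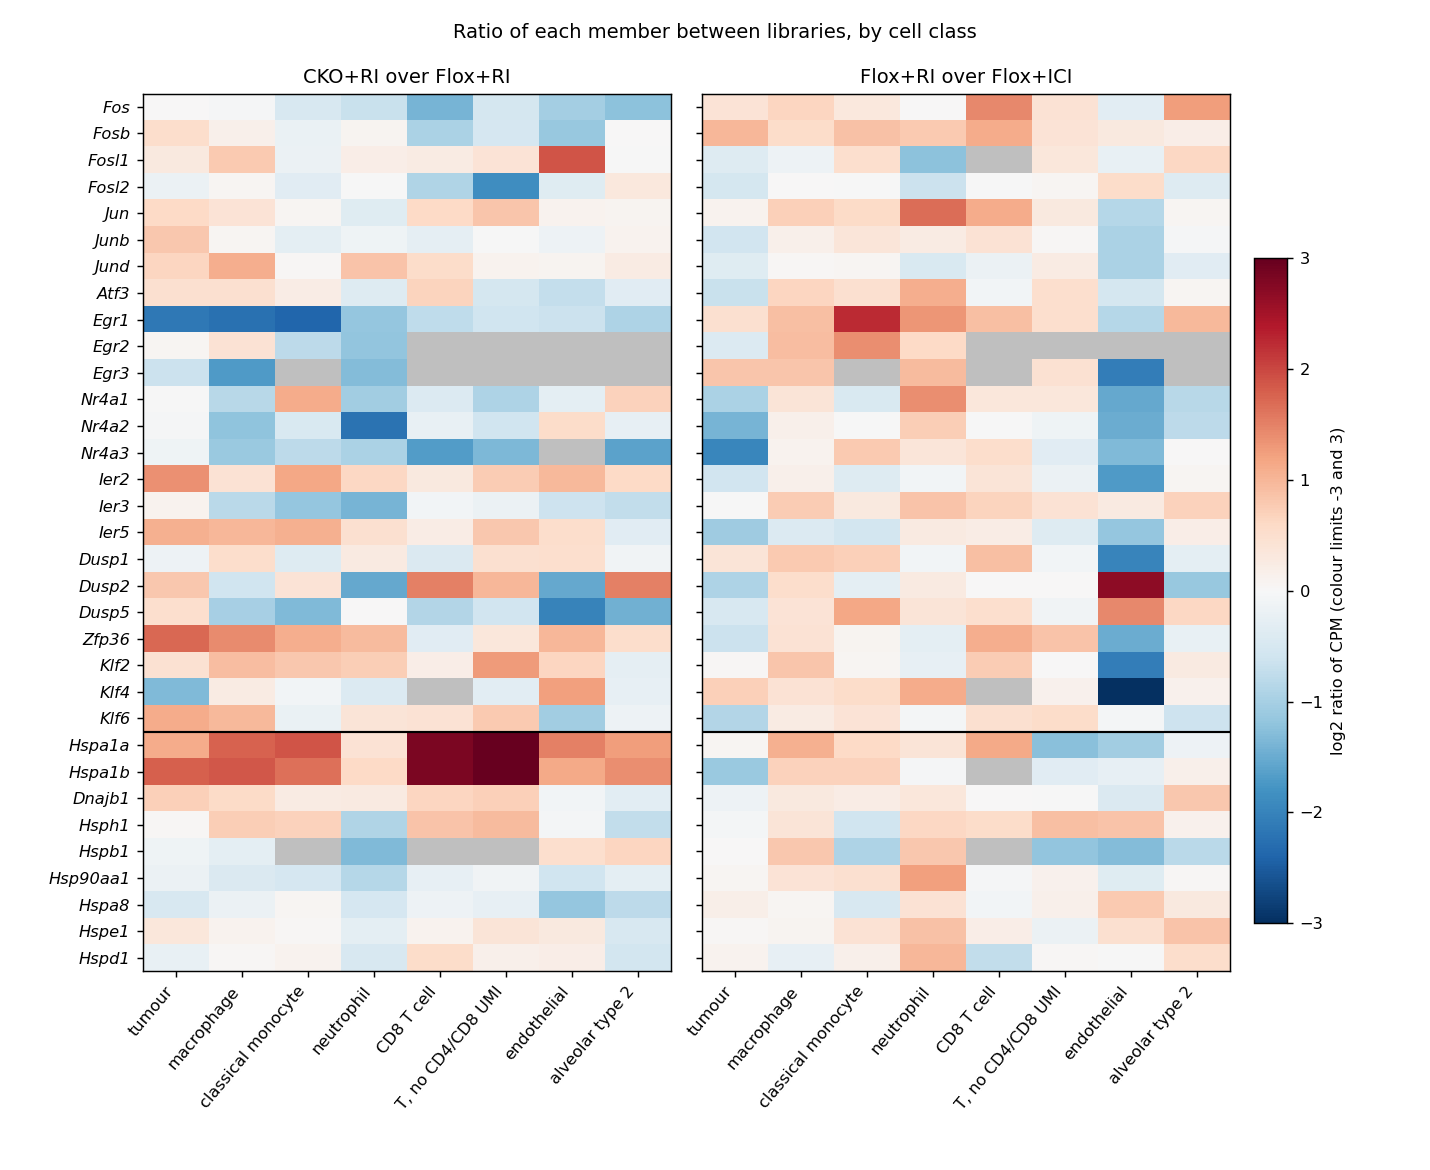
Log2 ratio of the CPM of each of the 33 genes by cell class, for CKO+RI over Flox+RI and for Flox+RI over Flox+ICI; grey cells had under 20 UMIs in both libraries together. In CKO+RI over Flox+RI, Hspa1a and Hspa1b were higher in 8 of 8 classes and Egr1 was lower in 8 of 8, and in Flox+RI over Flox+ICI the endothelial column holds the lowest value, Klf4 at a ratio of 0.0949.

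In the immediate early arm the EGR and NR4A transcription factors were lower in the library labelled CKO+RI than in Flox+RI. Their sum was lower in 8 of 8 classes, with 228 against 663 CPM in macrophages (0.344, 0.321 to 0.368) and 549 against 1210.1 CPM in neutrophils (0.453). Egr1, a zinc finger factor that growth factor and stress kinases switch on through serum response elements, was at 82.3, 389 and 209 CPM in macrophages of CKO+RI, Flox+RI and Flox+ICI. In monocytes it was at 77.0, 401 and 85.4 CPM, and in neutrophils at 344, 764 and 303 CPM. Flox+RI was the highest library in all 3 myeloid classes, while CKO+RI lay below Flox+ICI in macrophages and monocytes and above it in neutrophils. The ratio of CKO+RI over Flox+RI was 0.192 (0.154 to 0.238) in monocytes, 0.211 (0.19 to 0.235) in macrophages, 0.228 in tumour cells (1.56 against 6.85 CPM) and 0.450 in neutrophils. It was between 0.522 and 0.665 in the other 4 classes, so Egr1 was lower in 8 of 8 and past the fold in 4. The ratio of Flox+RI over Flox+ICI was 4.69 (4.0 to 5.51) in monocytes, 2.52 (2.28 to 2.80) in neutrophils and 1.86 (1.73 to 2.0) in macrophages. In neutrophils neither comparison was past the fold within a cluster. CKO+RI over Flox+RI was 0.644 in cluster 2 and 0.708 in cluster 9, and Flox+RI over Flox+ICI was 1.81 in cluster 2 and, in the opposite direction, 0.873 (0.715 to 1.07) in cluster 9. The macrophage and monocyte ratios of CKO+RI over Flox+RI held within clusters, at 0.187, 0.208 and 0.253 in clusters 7, 8 and 10. The macrophage ratio of Flox+RI over Flox+ICI differed between clusters, at 1.44 in cluster 7 and 3.96 in cluster 8.

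Thinned to 1000 UMIs, 7.16% (5.16 to 9.62) of macrophages had an Egr1 UMI in CKO+RI, 27.0% (24.6 to 29.4) in Flox+RI and 16.4% (14.0 to 19.1) in Flox+ICI. Unthinned, the shares were 31.6%, 59.1% and 40.9%. Monocytes had 6.02%, 31.0% and 7.84% after thinning, and alveolar macrophages had 18.4%, 40.5% and 37.1%. CD8 T cells had 9.33%, 9.48% and 7.59%, with intervals that overlap. Tumour cells had 0.228%, 0.827% and 0.402%, far below these. Egr1 was most widespread in fibroblasts, the cells of connective tissue, with 47.7% (35.1 to 60.5) of 65 cells in CKO+RI and 61% (53.0 to 68.6) of 159 in Flox+ICI, whose intervals overlap, and Flox+RI had too few fibroblasts for a share.

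Egr2 and Egr3, relatives of Egr1 known from myeloid and lymphoid activation, were scarce. Egr2 had enough UMIs in 4 classes and was at 25.3, 18.7 and 9.78 CPM in macrophages. Egr3 had enough in 3 classes for CKO+RI over Flox+RI and was lower in all 3, with 21.2 against 52.1 CPM in neutrophils (0.408, but 0.545 and 1.2 within clusters 2 and 9, both with intervals that include 1). The orphan receptor Nr4a3, a mark of recent antigen receptor signalling in T cells, was at 120.2, 384 and 266 CPM in CD8 T cells of CKO+RI, Flox+RI and Flox+ICI (CKO+RI over Flox+RI 0.313, 0.235 to 0.419). It was lower in CKO+RI in 7 of 7 measured classes and past the fold in 4. Nr4a2 was lower in 7 of 8, with 45.6 against 106 CPM in macrophages (0.432, and 0.588 within cluster 7). Nr4a1 was mixed, at 231, 106 and 146 CPM in monocytes (2.17, 1.77 to 2.68) but at 99.4, 205 and 78.2 CPM in neutrophils (0.484). Within monocyte cluster 10 its ratio was 1.498 (0.994 to 2.35), and within neutrophil cluster 2 it was 0.557, neither past the fold. In tumour cells these receptors stood apart in Flox+ICI instead. Nr4a3 was at 8.31, 9.06 and 35.3 CPM and Nr4a2 at 57.2, 58.8 and 155 CPM, so both were lower in the RI libraries (Flox+RI over Flox+ICI 0.257, 0.234 to 0.282, and 0.378, 0.364 to 0.393). Together with Ier5 (0.475, and 0.404 to 0.533 within clusters) they were the 3 of 24 members past the fold and lower in tumour cells in that comparison, where 9.82% of all genes were, and none was past the fold and higher, where 3.3% were.

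The AP-1 genes, whose products pair as FOS and JUN dimers, differed gene by gene, with members of both families on either side. Fos was at 719.9, 743 and 478 CPM in macrophages, at 922, 1468 and 1458 CPM in neutrophils and at 317, 746 and 313 CPM in alveolar type 2 cells. It was lower in CKO+RI than in Flox+RI in 7 of 8 classes and past the fold in CD8 T cells (0.379, 0.262 to 0.554), alveolar type 2 cells (0.426) and endothelial cells (0.490, and 0.519 within cluster 12). Jun was higher in 7 of 8 (monocytes at 0.921 and endothelial cells at 0.979 with the median ratio set to 1) and past the fold in none, at 834, 550.5 and 510.1 CPM in tumour cells (1.52, 1.5 to 1.53) and 814, 609 and 373 CPM in macrophages (1.34). The exception was neutrophils, with 809.5, 1034 and 321 CPM, where CKO+RI was below Flox+RI (0.783) and Flox+RI was 3.22-fold above Flox+ICI (2.92 to 3.55). Within cluster 2 that ratio was 2.42 (2.09 to 2.80), and within cluster 9 it was 1.17 with an interval that includes 1. Jund, a more constitutive partner, was higher in CKO+RI in 8 of 8 classes and past the fold in macrophages, with 455, 216 and 210.0 CPM (2.11, 1.97 to 2.26, and 1.83 within cluster 8). Its ratio lay near 1 in monocytes (1.02, 0.87 to 1.21). Junb, with 392, 222 and 330.2 CPM in tumour cells, was higher in 3 of 8. Fosb was higher in Flox+RI than in Flox+ICI in 8 of 8 classes, with ratios of 1.14 to 2.16. Fosl1 was highest in tumour cells among the 8 classes in every library, at 223, 182 and 236 CPM. In endothelial cells Fosl1 was past the fold and higher in CKO+RI than in Flox+RI, at 36.2 against 10.4 CPM within cluster 12. Fosl2 was at 197, 198 and 312 CPM in neutrophils. Atf3, a stress-induced relative, was at 334, 240.0 and 153 CPM in macrophages and at 256, 334 and 157 CPM in neutrophils, and was past the fold in neutrophils of Flox+RI over Flox+ICI alone (2.12, 1.83 to 2.47, and 1.21 within cluster 9).

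Among the feedback genes, the mRNA decay factor Zfp36 and the nuclear protein gene Ier2 were higher in CKO+RI. Zfp36 (tristetraprolin), which destroys cytokine transcripts, was at 195, 73.5 and 54.0 CPM in macrophages of CKO+RI, Flox+RI and Flox+ICI. In neutrophils it was at 516, 268 and 327 CPM and in tumour cells at 30.8, 9.37 and 14.7 CPM. CKO+RI was the highest library in all 3 of these classes. The ratio of CKO+RI over Flox+RI was 2.66 (2.37 to 2.98), 1.93 (1.69 to 2.20) and 3.29 (3.02 to 3.59), and Zfp36 was higher in 7 of 8 classes. Within macrophage cluster 7 its ratio was 1.52 (1.18 to 1.95), not past the fold. Ier2 was higher in 8 of 8 classes and past the fold in tumour cells (238, 92.7 and 138 CPM, 2.57, 2.50 to 2.64) and monocytes (354, 159 and 209 CPM, 2.23), where within cluster 10 it was at 382 against 229 CPM (1.67, 1.17 to 2.43) and not past the fold. Ier5 was higher in 7 of 8, with 99.6, 47.4 and 99.7 CPM in tumour cells (2.10, and 1.34 within cluster 13).

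Ier3 was lower in CKO+RI than in Flox+RI in 7 of 8 classes. It was at 1755, 4624 and 2557 CPM in neutrophils (CKO+RI over Flox+RI 0.380, 0.361 to 0.399) and at 1011, 2253 and 1827 CPM in monocytes (0.449, 0.420 to 0.479). Flox+RI was the highest library in both classes. In neutrophils the ratio was not past the fold within cluster 2 (0.565, 0.522 to 0.610) or cluster 9 (0.687, 0.630 to 0.748), and in cluster 9 Flox+RI, at 6029 CPM, did not exceed Flox+ICI, at 6437 CPM. In tumour cells the 3 libraries lay close together at 1049, 975 and 984 CPM. The MAP kinase phosphatases differed by class. Dusp1 was at 442, 307 and 179.6 CPM in macrophages (1.44) and higher in CKO+RI in 4 of 8 classes. Dusp2, which acts in the nucleus of leukocytes, was at 359, 126 and 125 CPM in CD8 T cells (2.84, 1.93 to 4.33) but at 90, 261 and 217 CPM in neutrophils (0.345, 0.275 to 0.430). Dusp5 was lower in 6 of 8 classes and past the fold in 3 of them. Of the Krüppel-like factors, Klf6 was at 253, 116 and 213 CPM in tumour cells (2.18, 2.12 to 2.23, and 1.82 and 1.42 within clusters 0 and 5), and Klf2, which keeps T cells and endothelium quiescent, was at 284, 117 and 115 CPM in T cells without a CD4 or CD8 UMI (2.43, 1.76 to 3.39). Klf2 was higher in CKO+RI than in Flox+RI in 7 of 8 classes, and Klf4 in 2 of 7.

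Counted over the arm, CKO+RI against Flox+RI gave 4 immediate early genes past the fold and higher and 2 lower of 24 measured in tumour cells, where 4.75% and 9.37% of all genes were. Macrophages had 2 higher and 4 lower of 24 (all genes 6.4% and 8.46%), monocytes 4 and 3 of 23 (11% and 8.52%), and neutrophils 0 and 7 of 24 (5.99% and 13.8%). Endothelial cells had 2 and 5 of 21 (13.6% and 4.29%), alveolar type 2 cells 1 and 3 of 22 (10.7% and 7.7%), CD8 T cells 1 and 2 of 21 (14.3% and 6.16%) and T cells without a CD4 or CD8 UMI 1 and 2 of 22 (5.48% and 5.16%). In most classes the count was thus small beside the arm, with members on both sides. In neutrophils every member past the fold was lower, and the 7 were Egr1, Egr2, Egr3, Nr4a1, Nr4a2, Ier3 and Dusp2. Of these, Nr4a2 and Dusp2 were past the fold in both cluster 2 and cluster 9, and the other 5 were not past it in both. For Flox+RI over Flox+ICI, neutrophils had 5 higher and 1 lower of 24 (all genes 18.9% and 5.22%), monocytes 3 and 0 of 23 (6.04% and 10.4%), CD8 T cells 4 and 0 of 20 (3.37% and 12.4%), and alveolar type 2 cells 1 and 1 of 22 (4.85% and 13%). Macrophages had 0 of 24 (3.49% and 3.82%) and T cells without a CD4 or CD8 UMI 0 of 23 (2.31% and 5.02%). Several of these counts were above the share of all genes on 1 side, such as the CD8 T cells of Flox+RI over Flox+ICI among higher genes and the endothelial cells and neutrophils of CKO+RI over Flox+RI among lower ones.

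In the endothelium of Flox+RI against Flox+ICI the immediate early arm had its most members past the fold. Of 23 measured members, 10 were past the fold and lower, where 14.1% of all genes were, and 2 were higher, where 5.68% were. The median log2 ratio of the members was -0.94 against -0.11 over all genes. Klf4, which with Klf2 answers to blood flow in endothelium, was at 284, 122 and 1287 CPM in CKO+RI, Flox+RI and Flox+ICI (Flox+RI over Flox+ICI 0.0949, 0.0751 to 0.118). Klf2 was at 519, 331 and 1394 CPM (0.237, 0.205 to 0.273), Dusp1 at 292, 206 and 814 CPM (0.253) and Ier2 at 381, 194 and 626 CPM (0.310). Flox+ICI was the highest library for each of these 4 genes and Flox+RI the lowest. Egr3, Nr4a1, Nr4a2, Nr4a3, Zfp36 and Ier5 completed the 10, at ratios of 0.237 to 0.445, of which Nr4a3 rested on 4 and 16 UMIs with an interval that includes 1. Jun, at 1257, 1171 and 2102 CPM, was lower at 0.557 without passing the fold. The 2 members past the fold and higher were Dusp2, at 68.8, 200.1 and 31.3 CPM (6.39, 4.36 to 9.61), and Dusp5, at 14.4, 57.4 and 21.2 CPM (2.71, 1.58 to 4.75), which were also the 2 lowest in CKO+RI over Flox+RI (0.344 and 0.25). Egr2 had 0, 0 and 5 UMIs in this class.

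**Figure D5:**
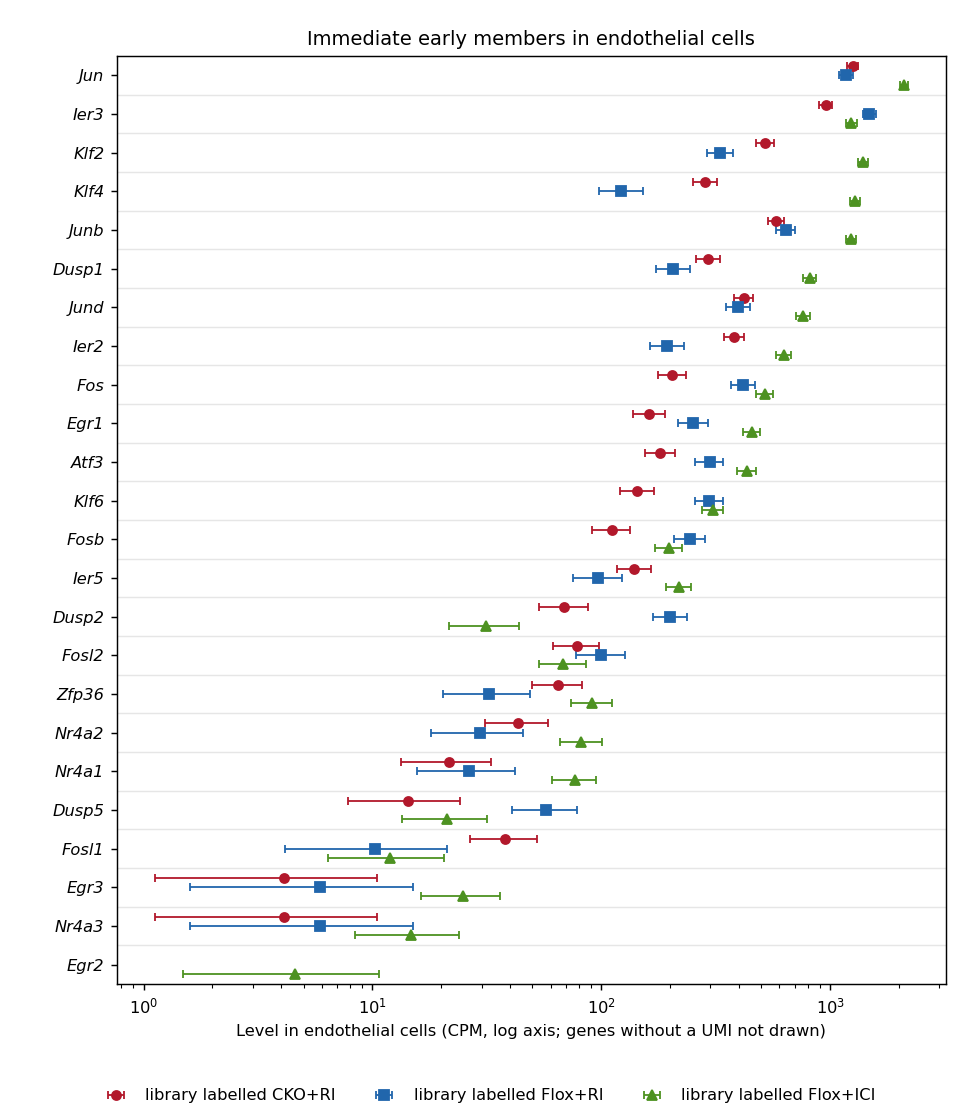
Level of immediate early genes in endothelial cells, in CPM on a log axis with exact Poisson 95% intervals, for the libraries CKO+RI, Flox+RI and Flox+ICI. Klf4 is at 284, 122 and 1287 CPM, and Klf2 at 519, 331 and 1394 CPM.

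The endothelial difference was as large within 1 cluster. Cluster 12 of an unsupervised clustering held 81.8%, 94.9% and 79.3% of the endothelial cells of CKO+RI, Flox+RI and Flox+ICI. There the immediate early arm was at 6148, 6628 and 12469 CPM and Klf4 at 278, 117 and 1329 CPM. Over the whole endothelial class, and not cluster 12 alone, cells with a Klf2 UMI made up 35.2%, 29.6% and 70.9% after thinning. Before it they made up 50.7%, 63.2% and 77.2%. Median depths of the class were 1725.5, 4247 and 1398 UMIs, so Flox+RI was the deepest library here, unlike in the other classes compared. Ptprc, the leukocyte antigen CD45, was at 12.3, 7.36 and 21.2 CPM in this class, against 194 to 297 CPM in macrophages.

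In other classes the cells of the libraries fell into different clusters, so each comparison was repeated within clusters. Macrophages of CKO+RI lay mostly in cluster 8 (72.1%), and those of Flox+RI (53.4%) and Flox+ICI (59.5%) mostly in cluster 7. Within cluster 8, Hspa1a was at 346, 117 and 50 CPM and Egr1 at 85.3, 410.3 and 104 CPM for CKO+RI, Flox+RI and Flox+ICI. Within cluster 7, Hspa1a was at 127, 70.9 and 37.7 CPM and Egr1 at 71.2, 381 and 264 CPM. Both clusters thus had CKO+RI highest in Hspa1a and lowest in Egr1, but in cluster 7 Hspa1a was not past the fold and Hspa1b, given above, lay near a ratio of 1. Monocytes lay in cluster 10 for 85.0% of CKO+RI and 88.5% of Flox+ICI, but for 15.4% of Flox+RI, whose gated monocytes were mostly in the macrophage cluster 7 (57.7%). Within cluster 10, Hspa1a was at 250, 60.7 and 45.9 CPM and Egr1 at 78.4, 310.3 and 83.1 CPM. For neutrophils, cluster 2 held 85.2%, 33.7% and 91.7%, and cluster 9 held 13.8%, 56.3% and 7.37%. The immediate early arm was at 11611, 14320.3 and 11322 CPM in cluster 2 and at 16613, 16899.6 and 19481 CPM in cluster 9, so within cluster 9 Flox+RI was no longer the highest.

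Tumour cells of CKO+RI were mostly in cluster 0 (45.1%, against 5.84% in Flox+RI and 34.9% in Flox+ICI), and those of Flox+RI in cluster 1 (62.7%, against 2.36% of CKO+RI and 7.16% of Flox+ICI). The immediate early arm of CKO+RI was nonetheless above that of Flox+RI in every cluster with at least 50 gated tumour cells of both, the last of which, cluster 13, also held other classes and took no name. It was at 4531 against 2921 CPM in cluster 0, 4285 against 2764 CPM in cluster 1, 2945 against 1933 CPM in cluster 5, 6472 against 4329.9 CPM in cluster 6 and 3877 against 2588 CPM in cluster 13. Cluster 4, which took no name, held 2250 kept cells of Flox+RI against 1 of CKO+RI and 32 of Flox+ICI. The 1777 of its Flox+RI cells that passed no gate had 10731 CPM in the immediate early arm and 3709 CPM of Ier3. Macrophages and neutrophils of Flox+RI had 12.3% and 9.73% of their cells in this cluster. The values within clusters 2, 7, 8 and 9 above do not hold those cells.

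Within a library the 2 arms were only loosely tied from cell to cell. After thinning to 1000 UMIs, Spearman's rho between immediate early and heat shock UMIs per cell was 0.237 over 559 macrophages of CKO+RI, 0.0710 over 1306 of Flox+RI and 0.105 over 858 of Flox+ICI, counts in which cells share a library and the values are small whole numbers. The highest value over the 8 classes was 0.372, in 135 alveolar type 2 cells of CKO+RI, and the lowest was -0.121, in 3992 tumour cells of Flox+RI. Among macrophages of CKO+RI, 40.8% (33.3 to 48.6) of the 169 cells highest in immediate early UMIs had a UMI of Hspa1a or Hspa1b, against 19.0% (15.2 to 23.2) of the other 390. Flox+RI had 13.3% (9.95 to 17.3) of 353 such cells and 9.76% (7.95 to 11.8) of the other 953. In Flox+ICI it was 13.6% of 279 such cells and 4.15% of the other 579, with intervals that did not overlap. The difference was thus not confined to CKO+RI.

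Related genes outside the 33 were read from lists of their own. Of 24 other immediate early genes, 22 were measured in endothelium of Flox+RI against Flox+ICI, and 8 were past the fold and lower against 2 higher (14.1% and 5.68% of all genes), with a median log2 ratio of -0.63. Csrnp1, an AXIN1-induced nuclear protein gene, was at 32.4 against 199 CPM (0.163, 0.0999 to 0.253) and the clock gene Per1 at 29.4 against 121 CPM (0.244). The matricellular genes Ccn2 and Ccn1, targets of YAP, were higher, at 271 against 29.5 CPM (9.19, 6.29 to 13.8) and 100.0 against 44.2 CPM (2.26). Of 18 other HSF1 targets and co-chaperones, at most 3 were past the fold in any class and comparison. In CD8 T cells of CKO+RI against Flox+RI, 3 of 15 measured were higher and 0 lower, where 14.3% and 6.16% of all genes were, among them the co-chaperone Bag3 at 70.9 against 22.6 CPM (3.14, 1.28 to 9.98). In macrophages, where the HSP70 pair differed more than 3-fold, Bag3 was at 74.1 against 41.2 CPM (1.80, 1.53 to 2.12), and the median of the list was 0.03 on the log2 scale beside 0.10 for all genes.

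A list of 15 genes covered the unfolded protein and integrated stress responses, which answer to stress in the endoplasmic reticulum and in translation. Herpud1 and Ddit3 of that list, and Ppp1r15a of the other immediate early genes, are named after their values were seen. Herpud1, which helps clear misfolded proteins, was higher in CKO+RI than in Flox+RI in the 7 host classes and past the fold in 3, with 196 against 92.5 CPM in alveolar type 2 cells (2.12, 1.52 to 3.01), and its ratio in tumour cells was 1.0 (0.945 to 1.06). In Flox+RI it was lower than in Flox+ICI in 8 of 8, with 92.5 against 323 CPM in alveolar type 2 cells (0.287). Ddit3 (CHOP) was higher in Flox+RI than in Flox+ICI in 7 of 8 classes, most in neutrophils with 213 against 48.5 CPM (4.39, 3.46 to 5.61). Ppp1r15a (GADD34), which restores translation, was lower in CKO+RI than in Flox+RI in 8 of 8 classes, with 109 against 472 CPM in neutrophils (0.231, 0.189 to 0.279). Of 13 upstream regulators, Hsf1 itself was lower in CKO+RI than in Flox+RI in 8 of 8 classes, with 22.6 against 37.4 CPM in tumour cells (0.604, 0.569 to 0.641). It was past the fold in endothelial cells (11 against 19 UMIs) and neutrophils (10 against 34 UMIs).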

How the data were processed

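The deposited files held UMI counts per gene and barcode for 3 libraries. They were made with Cell Ranger, version 6.1.2 per the file headers and 6.0 per the submitters' processing notes, against mm10. Seurat 5.0.3 is listed in those notes without a step, and the annotation was not given in the sources used here. The authors' filters beyond this are not stated, and the files held barcodes of at least 500 UMIs.

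Barcodes under 200 genes or above 20% mitochondrial UMIs were dropped, and those with the highest doublet scores were removed (0.8% per 1000 barcodes; scanpy 1.11.5). Cells were gated on fixed markers, with at least 2 markers per cell, a score of at least 0.15 and a lead of 0.05, constants set after the data were seen. Clusters came from 2000 variable genes, 30 components, 15 neighbours and Leiden resolution 1. UMIs were summed per class and library. With 1 library per group there was no test, and genes past the fold were those at 2-fold or more, either way, with at least 20 UMIs. Intervals are exact Poisson for levels, conditional binomial for ratios and binomial for shares, at 95% (scipy 1.17.1), and UMI depth sets their width. The 33 genes and all lists were chosen with earlier results of these data known. Genes named are all members, by role, and at most 4 of each other list, by size of ratio except where said, with Ppp1r15a besides.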

Additional observations from a re-analysis of the deposited data

How the results depend on the processing

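The immediate early arm of CKO+RI was above that of Flox+RI in 3 of 8 classes, in 1 of 8 when each cell had equal weight (mean of per-cell CPM) and in 6 of 10 classes taken from Leiden clusters. The heat shock arm was above in 4 of 8, in 2 of 8 when the median ratio over all genes was set to 1, and in 8 of 8 with inducible members only, an alternative chosen after seeing the data. The cause was not tested. The other 38 alternative counts of classes stayed within 1.5 times. For single genes and arms in single classes, 1424 alternative ratios stayed within their counting interval, 540 moved outside and 3 reversed a ratio past 2-fold. Those 3 were within clusters, an alternative chosen after seeing the data: Egr3 in neutrophils (1.2, cluster 9) and Klf4 in tumour cells (1.30, cluster 5, 41 against 4 UMIs) in CKO+RI over Flox+RI, and Egr1 in neutrophils (0.873, cluster 9) in Flox+RI over Flox+ICI. The direction held in 467 of 470 alternatives for ratios past 2-fold and in 1722 of 1839 for all ratios. Thinning to 1000 UMIs moved 64 of 159 and the median scaling 64, while at most 10% mitochondrial UMIs moved 0. A minimum of 100 cells could move none, since the smallest class compared had 117 cells, and its unmoved ratios are among the 1424. No paired analysis was possible because each group had 1 library and the labels give no shared replicate numbers. Depth limits the T cell, endothelial and alveolar type 2 classes of Flox+RI most, where several ratios rest on 5 to 20 UMIs, and leaving out Flox+RI leaves no comparison, while leaving out another library removes 1 of 2.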
